A study of Homo sapiens with 12 samples.

Results

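The genes of the insulin-like growth factor (IGF) axis were examined in IMR90 ER:RAS cells undergoing oncogene-induced senescence (OIS) with and without knockdown of the transport receptor gene XPO7. The set was defined by gene symbol and held 10 genes of the 62069 in the count table: the ligands IGF1 and IGF2, the receptor IGF1R, and the binding proteins IGFBP1, IGFBP2, IGFBP3, IGFBP4, IGFBP5, IGFBP6 and IGFBP7. IMR90 is a human fetal lung fibroblast line, and ER:RAS is a fusion of an oncogenic RAS to the hormone-binding part of the estrogen receptor, which 4-hydroxytamoxifen (4OHT) switches on. RNA-seq was performed on 4 groups of 3 libraries, and all of the cells carried ER:RAS. The vector group was not induced and bore no shRNA against XPO7. The vector/4OHT group bore the same vector and was collected on day 5 of 100 nM 4OHT. The shXPO7_3/4OHT and shXPO7_5/4OHT groups were induced in the same way and bore either of 2 shRNAs against XPO7. For every library the sample records give day 5, passage 13, 7 days of culture and a medium change on day 4. No non-induced knockdown group was analysed here, so an effect of the shRNAs without RAS cannot be told apart from one on the RAS response.

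Both IGF ligands signal through IGF1R, a receptor tyrosine kinase that feeds the PI3K/AKT and MAPK pathways. IGFBP1 to IGFBP6 are secreted proteins that bind the ligands with high affinity, and they can keep the ligands from the receptor or carry them to it. IGFBP7 binds the ligands only weakly. Proteases such as the pappalysins PAPPA and PAPPA2 cut binding proteins and so free the bound ligand. Fibroblasts are a known source of several of these proteins, and several IGFBPs have been described in the secretome of senescent cells.

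The 12 libraries held between 28534141 and 60397769 assigned reads, with a median of 35319409. XPO7, the gene targeted by the shRNAs, lay at 135 ± 7.04 CPM (counts scaled to library size; SD, n = 3) in the vector group and 137 ± 8.81 CPM in the vector/4OHT group. It fell to 27.7 ± 1.14 CPM with shXPO7_3 (log2 fold change -2.30, adjusted p = 1.24e-08, edgeR's quasi-likelihood test) and to 52.2 ± 1.62 CPM with shXPO7_5 (log2 fold change -1.39, adjusted p = 3.27e-06). All 9 fibroblast markers examined had reads. Of 5 epithelial markers 3 were listed at 0 (KRT5, KRT14 and SFTPC), and of 4 endothelial markers 2 (PECAM1 and CDH5). Of 4 immune markers 1 (CD3E) was listed at 0, and the 4 summed to at most 0.219 CPM in any library. TXNIP, a widely expressed gene, was also listed at 0 in all 12 libraries, so a 0 in this table need not mean absence. Some markers of other cell types had reads: VWF lay between mean levels of 2.22 CPM (vector) and 3.599 CPM (shXPO7_5/4OHT), and KDR between 0.236 CPM (vector) and 0.937 CPM (shXPO7_3/4OHT). EPCAM was at 0.912 CPM in the vector group and 0.497 CPM in the vector/4OHT group (adjusted p = 0.0225). Their part in the results was not tested. The summed fibroblast markers ranged from 24186 to 27969 CPM in the vector libraries and from 16902 to 18359 CPM in the vector/4OHT libraries. In the knockdown libraries this sum ranged from 17623 to 21478 CPM for shXPO7_3 and from 19201 to 21903 CPM for shXPO7_5. These are bulk libraries, in which fewer cells of a type and less RNA per cell cannot be told apart. Nothing in the labels ties each library to its own culture, and the p-values therefore rest on a spread between libraries that may be technical.

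IGFBP5 and IGFBP4 were the most abundant genes of the axis, and the bases upstream of their starts are shown because these 2 genes make up most of its RNA and did not move together. The windows cover the 250 bases before the start of the RefSeq gene in GRCh38.p14, read on the strand of the gene from 5′ to 3′. IGFBP5 is at chr2:216695550-216695799 on the minus strand, and IGFBP4 is at chr17:40443200-40443449 on the plus strand. Capitals mark an E-box (CANNTG, the motif bound by basic helix-loop-helix factors), an AP-1 site (TGANTCA) or a TATA box (TATAAA). Both strands were searched.
IGFBP5: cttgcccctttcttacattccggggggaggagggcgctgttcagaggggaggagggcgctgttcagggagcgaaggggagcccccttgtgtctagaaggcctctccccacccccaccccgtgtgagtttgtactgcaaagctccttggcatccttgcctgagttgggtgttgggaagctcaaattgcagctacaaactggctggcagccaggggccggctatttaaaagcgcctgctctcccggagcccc
IGFBP4: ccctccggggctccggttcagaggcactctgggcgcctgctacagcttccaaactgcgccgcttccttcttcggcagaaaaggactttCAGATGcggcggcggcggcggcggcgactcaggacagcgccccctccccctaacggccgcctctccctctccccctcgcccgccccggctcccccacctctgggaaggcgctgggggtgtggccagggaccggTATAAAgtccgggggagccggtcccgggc
The IGFBP4 window held 1 E-box that began 162 bases before the start, 1 TATA box that began 29 bases before it, and 1 GC box (GGGCGG, not capitalised). The IGFBP5 window held none of the 4 motifs as spelled. Over the 34786 RefSeq windows of the same length, 61.8% held an E-box, 6.59% an AP-1 site, 42.6% a GC box and 10.8% the TATA box. A match is a description of letters and not of binding, and a missing match concerns only this spelling in this window. Windows were at hand for 7 of the 10 genes, and IGF2, IGFBP1 and IGFBP7 were not among them.

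IGFBP5 and IGFBP2 are neighbours on chromosome 2, with ends 7668 bases apart, and IGFBP3 and IGFBP1 are neighbours on chromosome 7, with ends 18576 bases apart (GRCh38, GENCODE 29). Each pair lies tail to tail with 0 coding genes between. Neighbours did not share a level. Scaled to exon length, IGFBP5 stood at 560.5 ± 34.6 CPM per kb of exon in the vector group and IGFBP2 at 7.00 ± 0.905 CPM per kb. IGFBP3 stood at 22.3 ± 1.97 CPM per kb, while IGFBP1 was near the limit of detection.

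The levels per kb spanned a wide range. In the vector libraries the order from the highest down was IGFBP5, IGFBP4 at 462 ± 40.6, IGFBP6 at 59.5 ± 4.35 and IGFBP3, and neighbours in this stretch did not overlap in any library. IGFBP2, IGF1R at 5.37 ± 0.574 and IGFBP7 at 4.19 ± 0.792 CPM per kb followed, and each overlapped the next in this order. IGF2 lay below them at 2.25 ± 0.138 CPM per kb. IGF1 and IGFBP1 came last and overlapped each other. After 4OHT the first 4 places were held by the same genes in the same order, without overlap. IGFBP7 stood above IGFBP2 there, at 8.86 ± 1.72 against 7.63 ± 0.0853 CPM per kb, but the libraries of these 2 genes overlapped. With shXPO7_5 the mean of IGFBP7 also stood above that of IGFBP3, at 17.6 ± 5.33 against 14.9 ± 0.768 CPM per kb, again with overlap.

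IGF1 and IGFBP1 did not reach the count filter and were not part of the test across genes. IGF1, the endocrine and paracrine growth factor of the axis, had 1 to 8 reads in each library. IGFBP1, best known as a liver product under insulin control, had 1 to 15 reads in each library. IGFBP1 reads summed to 3 in the vector group and 18 in the vector/4OHT group, a depth-scaled ratio of 5.71 with a counting interval from 1.67 to 30.3 (exact, 95%). They summed to 38 with shXPO7_3 and 20 with shXPO7_5. The ratios to vector/4OHT were 1.87 (1.04 to 3.49) and 1.28 (0.642 to 2.56). For IGF1 the sums were 19, 10, 15 and 8 reads in the vector, vector/4OHT, shXPO7_3/4OHT and shXPO7_5/4OHT groups, and the interval of every ratio to its control held 1. These intervals cover counting error only.

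**Figure D1:**
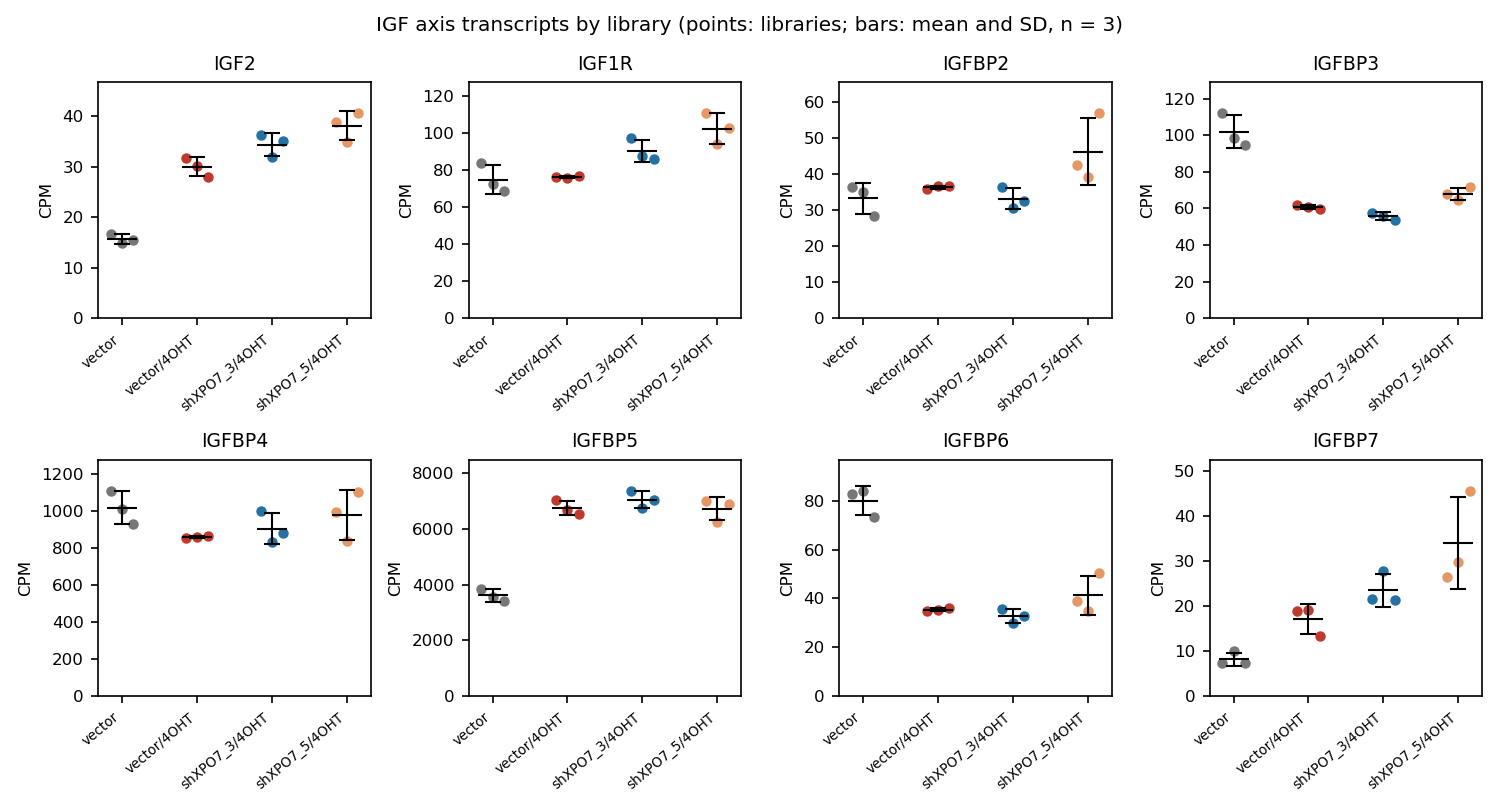
Levels of the 8 tested IGF axis genes (y axis, TMM-scaled CPM, each panel from 0) in the 4 groups (x axis); points are libraries and bars are the mean and SD of 3 libraries. IGF2, IGFBP5 and IGFBP7 sat higher and IGFBP3, IGFBP4 and IGFBP6 lower in every vector/4OHT library than in any vector library. The share of all genes that separate in this way was not counted, and 50.9% of all genes tested were called. IGFBP7 reached 45.7 CPM in 1 shXPO7_5/4OHT library.

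Between vector and vector/4OHT, 5 of the 8 tested genes were called, 3 upwards and 2 downwards. This comparison of vector/4OHT with vector asks how the axis stood in OIS. All cells carried ER:RAS, so an effect of 4OHT itself cannot be told apart from that of RAS. Among all 15284 genes tested, 50.9% were called at an adjusted p under 0.05, with 24.8% higher and 26.1% lower. A call in this comparison is therefore common. The 62.5% called among the 8 genes lies near that share, so the count and its split say little about the axis as such. The median log2 fold change of the 8 genes was 0.08, against -0.01 over all genes tested. The test throughout is edgeR's quasi-likelihood test with Benjamini-Hochberg adjustment over all genes tested.

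Of the ligands, IGF2 rose. IGF2, the growth factor from the imprinted locus on chromosome 11, stood at 16.7, 14.8 and 15.5 CPM in the vector libraries. It stood at 31.8, 30.2 and 28.0 CPM in the vector/4OHT libraries, all above every vector library. The log2 fold change was 0.94 (SE 0.088, adjusted p = 2.46e-06). IGF2 shares 1460 of its exon bases with the read-through gene INS-IGF2 on the same strand, to which the table assigned 0 reads in every library.

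The receptor gene showed no difference past the test. IGF1R was at 83.8, 72.3 and 68.4 CPM in the vector libraries and at 76.3, 75.4 and 76.8 CPM in the vector/4OHT libraries. The vector/4OHT values lay inside the range of the vector values. The log2 fold change of 0.03 had an interval from -0.17 to 0.22 (95%, adjusted p = 0.827), which leaves room for changes up to that size, and its sign turned under another scaling.

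Among the tested genes of the axis, IGFBP5 had the largest gain in CPM. It is the best conserved of the binding proteins and binds extracellular matrix as well as ligand. It had 3856, 3554 and 3422 CPM in the vector libraries against 7041, 6669 and 6557 CPM in the vector/4OHT libraries, with no overlap. The log2 fold change was 0.90 (SE 0.068, adjusted p = 3.22e-07). IGFBP5 took between 0.361% and 0.397% of all assigned reads in the vector libraries and between 0.652% and 0.693% in the vector/4OHT libraries.

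IGFBP7 rose by a similar factor from a far lower level. It had 7.20, 9.86 and 7.23 CPM in the vector libraries and 18.8, 19.2 and 13.3 CPM in the vector/4OHT libraries. Replicate B of vector/4OHT was the lowest of its group but still above every vector library. The log2 fold change was 1.07 (SE 0.223, adjusted p = 0.0016), with the widest error of the tested genes of the axis. IGFBP7 shares 270 exon bases with POLR2B on the opposite strand, and the strand setting of the counting is not given in the sources used here. POLR2B was at 185 ± 22.8 CPM in the vector group and 232 ± 1.97 CPM in the vector/4OHT group, and any part of its reads in the IGFBP7 values was not tested.

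IGFBP3 and IGFBP6 fell. IGFBP3, the main carrier of IGFs in blood, went from 112, 98.7 and 94.8 CPM to 61.6, 61.0 and 59.4 CPM (log2 fold change -0.75, SE 0.076, adjusted p = 4.81e-06). IGFBP6, which prefers IGF2 as its ligand, had 82.8, 84.1 and 73.4 CPM in the vector libraries and 34.9, 35.0 and 36.0 CPM in the vector/4OHT libraries. Its log2 fold change of -1.18 was the largest fall among the tested genes of the axis (SE 0.122, adjusted p = 5.79e-06). For both genes every vector/4OHT library lay below every vector library. In these libraries the transcript of IGF2 was higher while that of its preferring binder was lower.

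IGFBP4 and IGFBP2 did not pass. IGFBP4, a binder that PAPPA cleaves, had 1110, 1009 and 932 CPM in the vector libraries and 853, 858 and 868 CPM in the vector/4OHT libraries. The groups did not overlap, but the log2 fold change of -0.24 (interval -0.47 to -0.02) had an adjusted p of 0.0652, and 6 of 14 alternative analyses called it lower. IGFBP2 had 36.6, 35.1 and 28.5 CPM in the vector libraries and 35.9, 36.6 and 36.6 CPM in the vector/4OHT libraries (log2 fold change 0.12, adjusted p = 0.471). Here the groups overlapped. With an offset for GC content and length, under which 64.8% of all genes tested were called, IGFBP2 was at 0.29 (adjusted p = 0.00137) and IGF1R at 0.15 (adjusted p = 0.0271), and both were called.

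**Figure D2:**
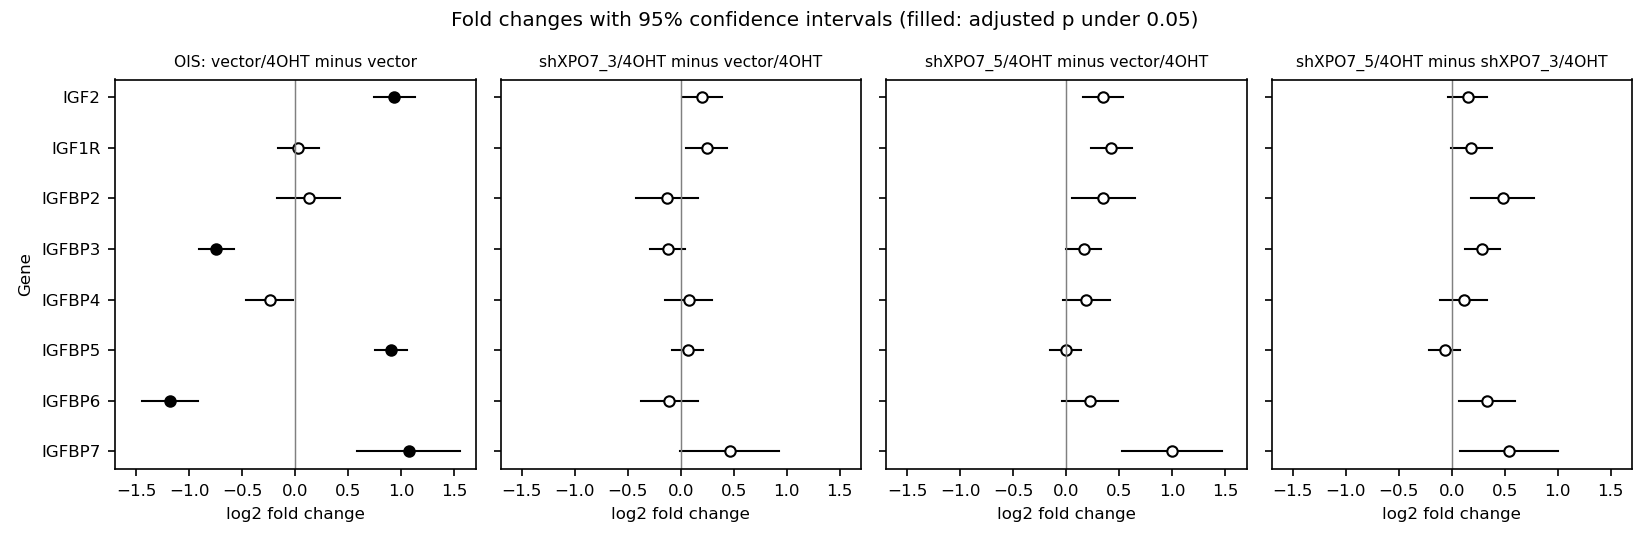
Log2 fold changes (x axis) of the 8 tested genes (y axis) in 4 comparisons; lines are 95% confidence intervals and filled points have an adjusted p under 0.05. The 5 filled points all lie in the OIS panel, and in the shXPO7_5 panel IGFBP7 has the highest value, 0.998.

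The make-up of the binding protein transcripts shifted with OIS. The CPM per kb of the 7 IGFBP genes summed to 1116 ± 80.8 in the vector group and 1496 ± 37.1 in the vector/4OHT group. IGFBP5 made up 50.3% ± 0.712 of that sum in the vector libraries and 70.1% ± 0.880 in the vector/4OHT libraries. The share of IGFBP4 went from 41.4% ± 0.644 to 26.1% ± 0.850, and that of IGFBP6 from 5.34% ± 0.274 to 1.75% ± 0.0704. The shares of IGFBP3 were 1.996% ± 0.0454 and 0.888% ± 0.0118. None of these 4 shares overlapped between the groups. A share falls when another gene rises, and IGFBP4 itself did not pass the test. For each share an exact permutation test of 3 against 3 libraries cannot give a two-sided p below 0.1, so none is given.

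Among the proteases that release IGF from its binders, and their inhibitors, 8 of 9 listed genes were tested in OIS. Of these 5 rose and 2 fell, 87.5% of the tested genes where 50.9% of all genes tested were called. The median log2 fold change was 0.41 over the list against -0.01 over all genes tested. PAPPA2 and ADAM28, counted among the rises, had at most 13 and 10 reads in any vector library. They reached the count filter mainly through induced libraries, which favours a rise. The share, the median and the p-values of these 2 genes are therefore descriptions only. STC1, a stanniocalcin that inhibits pappalysins, had 135, 142 and 150 CPM in the vector libraries and 3518, 3605 and 3522 CPM in the vector/4OHT libraries (log2 fold change 4.64, SE 0.087, adjusted p = 4.42e-12). Every induced library was far above every vector library. PAPPA2, a protease for IGFBP3 and IGFBP5, rose from 0.272 to 2.70 CPM (log2 fold change 3.28, SE 0.224, adjusted p = 1.33e-07). ADAM28, a membrane metalloprotease, was called higher at a very low level, 0.129 against 0.401 CPM (log2 fold change 1.62, adjusted p = 0.0358). Leaving out either of 2 vector libraries (T or A) or any vector/4OHT library ended that call, with an adjusted p of up to 0.137.

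PAPPA, the protease for IGFBP4 and IGFBP5, rose by less. It had 171, 163 and 174 CPM in the vector libraries and 239, 218 and 189 CPM in the vector/4OHT libraries (log2 fold change 0.34, SE 0.097, adjusted p = 0.0106). STC2, the other stanniocalcin, fell from 642 to 281 CPM (log2 fold change -1.19, adjusted p = 1.02e-08), opposite to STC1. HTRA1, a serine protease that carries an IGFBP-type domain, fell from 196 to 126 CPM (log2 fold change -0.64, adjusted p = 0.000118). STC2 and HTRA1 were chosen for mention after their values were seen.

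**Figure D3:**
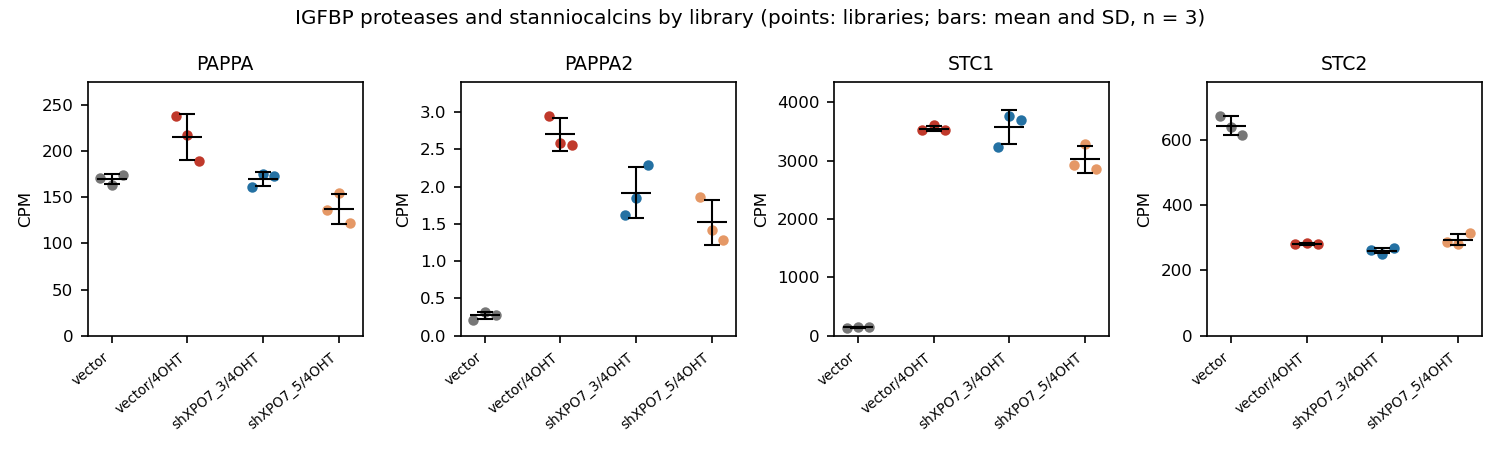
Levels of the pappalysins PAPPA and PAPPA2 and the stanniocalcins STC1 and STC2 (y axis, TMM-scaled CPM, each panel from 0) in the 4 groups (x axis); points are libraries and bars are the mean and SD of 3 libraries. STC1 rises from 142 to 3548 CPM with 4OHT while STC2 falls from 642 to 281 CPM, and PAPPA is lowest with shXPO7_5, at 137 CPM.

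Among the other receptors, INSR, the insulin receptor, fell from 11.1 to 5.11 CPM (log2 fold change -1.11, adjusted p = 7.54e-06). IGF2R, which takes IGF2 to the lysosome, was at 535 CPM in the vector group and 572 CPM in the vector/4OHT group (log2 fold change 0.10, adjusted p = 0.577). Only these 2 of 6 listed receptors and partners were tested. Of 10 tested genes with an IGFBP-type domain outside the family, 1 rose and 6 fell (70%, against 50.9% of all genes tested), with a median log2 fold change of -0.47. The largest changes in that list were falls of CCN3 (log2 fold change -1.85), CRIM1 (-1.34) and CCN1 (-1.12), which encode secreted or membrane-bound matricellular and growth factor regulators.

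The genes that carry the signal inside the cell were called about as often as any gene. Of 26 tested genes of insulin and IGF signalling 9 rose and 4 fell, which is 50% where 50.9% of all genes tested were called, and the median log2 fold change was 0.18. IRS2, an adaptor that links the receptors to PI3K, went from 18.9 to 6.57 CPM (log2 fold change -1.52, adjusted p = 1.12e-07). PIK3CB, a catalytic subunit of PI3K, rose from 38.9 to 64.1 CPM (log2 fold change 0.72, adjusted p = 4.48e-05).

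The remaining lists were small. Of 8 tested FOXO targets, genes that FOXO factors induce when AKT is quiet, 1 rose and 3 fell (median log2 fold change -0.33), again 50% against 50.9% of all genes tested. INSR and IRS2 were among the falls, while FBXO32, a ubiquitin ligase subunit, rose from 15.4 to 39.8 CPM (log2 fold change 1.37, adjusted p = 8.66e-09). Of 3 tested genes for IGF2 mRNA binding and its locus, IGF2BP1 was called higher (log2 fold change 0.32, adjusted p = 0.00883), a call that ended with upper-quartile scaling (adjusted p = 0.115).

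XPO7 knockdown during OIS did not bring any gene of the axis past the test with either shRNA, although IGF1R and IGFBP7 were close to it with shXPO7_5. These comparisons ask what XPO7 depletion changed in RAS-induced cells, and both use the same vector/4OHT libraries. With shXPO7_3, 0 of the 8 tested genes were called, where 0.124% of all genes tested were. With shXPO7_5, 0 of 8 were called by edgeR, where 0.589% of all genes tested were, and DESeq2 called 3 of 8 (IGF1R, IGF2 and IGFBP7), where it called 3.63% of all genes. With shXPO7_3 DESeq2 called 0 of 8, where it called 0.612% of all genes. At an unadjusted p under 0.05 there were 2 of 8 with shXPO7_3 (6.41% of all genes tested) and 4 of 8 with shXPO7_5 (21.6%). The median log2 fold change of the 8 genes was 0.07 with shXPO7_3 and 0.29 with shXPO7_5, where that of all genes was -0.003 and 0.006. With an offset for GC content and length, all 8 shXPO7_5 log2 fold changes were lower. IGFBP4, IGFBP5 and IGFBP6 then lay at -0.03, -0.11 and -0.0025, while the rest stayed positive.

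Counted by separation alone, 3 genes with shXPO7_3 (IGF2, IGF1R and IGFBP7) had all libraries above those of vector/4OHT, against 7.46% of all genes tested. With shXPO7_5 there were 5 (IGF2, IGF1R, IGFBP2, IGFBP3 and IGFBP7), against 14.2% of all genes. In the other direction, 1 gene with shXPO7_3 (IGFBP3) had all libraries below those of vector/4OHT, against 7.15% of all genes, and 0 with shXPO7_5, against 12.6%. The shared vector/4OHT libraries enter both counts. IGF1R, IGFBP2, IGFBP3, IGFBP4 and IGFBP6 also varied little among the 3 vector/4OHT libraries, with SDs of 0.716 CPM for IGF1R and 0.407 CPM for IGFBP2.

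IGF1R had 97.2, 87.7 and 85.8 CPM in the shXPO7_3/4OHT libraries (log2 fold change 0.24, adjusted p = 0.565). In the shXPO7_5/4OHT libraries it had 111, 93.9 and 102 CPM (log2 fold change 0.42, SE 0.089, adjusted p = 0.0555). All 6 knockdown libraries lay above the 3 vector/4OHT libraries. The shXPO7_5 difference passed the test in 7 of 14 alternative analyses, whose adjusted p ran from 0.00228 to 0.225.

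IGFBP7 had the greatest difference. It had 21.5, 27.7 and 21.3 CPM with shXPO7_3 (log2 fold change 0.46, adjusted p = 0.792) and 26.4, 29.9 and 45.7 CPM with shXPO7_5 (log2 fold change 0.998, interval 0.53 to 1.47, adjusted p = 0.0615). Every knockdown library lay above every vector/4OHT library, and replicate B of shXPO7_5/4OHT stood apart from the other two. Without that library the log2 fold change was 0.73 (adjusted p = 0.222). Over 14 alternatives the adjusted p ran from 0.000453 to 0.222, and 4 of them called it. POLR2B, the gene that overlaps IGFBP7, was at 192 ± 28.6 CPM with shXPO7_5 and did not pass the test (log2 fold change -0.27, adjusted p = 0.234).

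IGF2 had 36.3, 31.9 and 35.0 CPM with shXPO7_3 (log2 fold change 0.20, adjusted p = 0.718) and 38.9, 34.9 and 40.6 CPM with shXPO7_5 (log2 fold change 0.35, adjusted p = 0.0877). The knockdown libraries lay above the vector/4OHT libraries, with the closest pair at 31.9 and 31.8 CPM. Without shXPO7_5/4OHT replicate A the shXPO7_5 difference was called (log2 fold change 0.41, adjusted p = 0.0263), in a fit where 23% of all genes tested were called. Of 14 alternatives 2 called it. With the offset for GC content and length the log2 fold change was 0.17 (adjusted p = 0.133).

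IGFBP5, which rose on induction, stayed close to its induced level in the knockdown libraries. With shXPO7_3 it had 7376, 6738 and 7057 CPM (log2 fold change 0.06). With shXPO7_5 it had 7022, 6251 and 6917 CPM, a log2 fold change of -0.01 with an interval from -0.15 to 0.14 (adjusted p = 0.962). The interval is narrow beside the OIS change of 0.90 in the same gene. The share of IGFBP5 in the IGFBP sum was 70.1% ± 0.909 with shXPO7_3 and 67.0% ± 2.18 with shXPO7_5, and the sums themselves were 1563 ± 89.2 and 1562 ± 132 CPM per kb.

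The binding proteins that had fallen in OIS remained below their vector levels. IGFBP3 had 57.7, 55.9 and 53.6 CPM with shXPO7_3, just below the vector/4OHT libraries (log2 fold change -0.12, adjusted p = 0.988). It had 67.8, 64.4 and 71.5 CPM with shXPO7_5, just above them (log2 fold change 0.16, adjusted p = 0.234). IGFBP6 had 35.5, 30.0 and 32.8 CPM with shXPO7_3 and 38.8, 34.6 and 50.3 CPM with shXPO7_5 (log2 fold change 0.22, adjusted p = 0.266). For both genes the highest knockdown library lay under the lowest vector library, at 94.8 CPM for IGFBP3 and 73.4 CPM for IGFBP6.

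IGFBP2 and IGFBP4 varied among the shXPO7_5/4OHT libraries. IGFBP2 had 36.5, 30.7 and 32.5 CPM with shXPO7_3 and 42.6, 39.3 and 57.0 CPM with shXPO7_5 (log2 fold change 0.35, adjusted p = 0.202). IGFBP4 had 1000 CPM in the highest shXPO7_3/4OHT library and 834 and 882 CPM in the others, and 995, 835 and 1105 CPM with shXPO7_5 (log2 fold change 0.19, adjusted p = 0.269). Replicate B was the highest of the shXPO7_5/4OHT libraries for IGFBP2, IGFBP4, IGFBP6, IGFBP7, IGFBP3 and IGF2.

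Replicate B of shXPO7_5/4OHT also had the strongest tie between a gene's GC content and its level. Across genes, the Spearman correlation of GC content with the log ratio of that library to the vector/4OHT mean was 0.79, against 0.61 in replicate T and 0.12 in replicate A. In the shXPO7_3/4OHT libraries it was 0.58 in T, -0.34 in A and -0.25 in B. Transcripts of the 8 genes held from 50.3% GC (IGFBP7) to 63.0% (IGFBP6), all above the median of 48.8% for tested genes. With an offset for GC content and length, the shXPO7_5 log2 fold changes of IGFBP6 went from 0.22 to -0.0025, of IGFBP4 from 0.19 to -0.03, of IGFBP2 from 0.35 to 0.15 and of IGF2 from 0.35 to 0.17. Those of IGFBP7 and IGF1R moved little, to 0.96 (adjusted p = 0.0237) and 0.38 (adjusted p = 0.00228), and were called.

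Outside the members, 1 gene of the listed pathway genes was called with a knockdown. PAPPA, which had risen in OIS, had 136, 154 and 122 CPM with shXPO7_5 and was lower than in vector/4OHT (log2 fold change -0.65, SE 0.098, adjusted p = 0.0164). All 3 of these libraries lay below every vector/4OHT library and below every vector library. Of 14 alternatives 9 called it. The call ended in the fit of the 2 groups alone (adjusted p = 0.0898) and when vector/4OHT replicate T or A or shXPO7_5/4OHT replicate T or B was left out (adjusted p of up to 0.0981). With shXPO7_3 PAPPA had 161, 175 and 173 CPM (log2 fold change -0.34, adjusted p = 0.317). PAPPA2 had a mean of 1.92 CPM with shXPO7_3 and 1.52 CPM with shXPO7_5 (log2 fold change -0.84, adjusted p = 0.0578), and all 6 knockdown libraries lay between the vector and the vector/4OHT libraries. In the list of proteases and inhibitors 0 of 8 tested genes were called with shXPO7_3 and 1 of 8 with shXPO7_5. In the signalling list 0 of 26 were called with either shRNA. Among all genes tested 0.124% were called with shXPO7_3 and 0.589% with shXPO7_5, so these counts say little about the lists.

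The 2 shRNAs were also compared directly, since they left different amounts of XPO7. Between shXPO7_5/4OHT and shXPO7_3/4OHT 0 of the 8 tested genes were called, where 0.0131% of all genes tested were, and DESeq2 called 0, where it called 0.177% of all genes. At an unadjusted p under 0.05 there were 4 of 8, against 11.9% of all genes. The lowest p-values were those of IGFBP3 (log2 fold change 0.29, adjusted p = 0.388) and IGFBP2 (0.48, adjusted p = 0.388). For both, every shXPO7_5/4OHT library lay above every shXPO7_3/4OHT library, but the share of all genes that separate in this way was not counted. IGFBP7 differed by 0.54 on the log2 scale (SE 0.213, adjusted p = 0.388). With the offset for GC content and length the log2 fold changes were 0.21 for IGFBP3, 0.30 for IGFBP2 and 0.50 for IGFBP7.

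The genes whose log2 CPM followed a member most closely over the 12 libraries were named for the 3 members with the highest mean CPM. They were PREX1 (Pearson's r = 0.997) and SLC7A6 (0.996) for IGFBP5, CC2D1B (0.973) and CAPNS1 (0.971) for IGFBP4, and DNAJB5 (0.965) and DNM1 (0.963) for IGF1R. The correlations were taken over 10569 genes and are descriptions. They include the step between the 4 groups. The libraries also differ in GC trend, whose part in these correlations was not tested.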

How the data were processed

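RNA-seq was available for 4 groups of 3 libraries, grouped by the sample labels (the name vector comes from the study's text). The deposited values are raw gene counts. Tools listed in the submitters' processing notes are featureCounts 1.18.0, TopHat2 2.0.11 and CASAVA 1.8.4, with GRCh37 (hg19) as the build. The sources used here give neither annotation release nor strand setting. Counts without a symbol were kept, and 92 spike-in entries were all 0. Genes were filtered with filterByExpr (15284 kept), scaled by TMM and fitted with edgeR 4.0.16 (R 4.3.3) in 1 model of all 12 libraries with Benjamini-Hochberg adjustment at 0.05. CPM are TMM-scaled. CPM per kb use exon length from GENCODE 29 (GRCh38), matched by Ensembl ID. GC content and length were known for 97.3% of tested genes, and their offset used splines of 5 degrees of freedom. DESeq2 1.42.0, other scalings, filters and left-out libraries were alternatives. The fit was tested on simulated data. Promoter windows come from RefSeq. All 10 members, XPO7 and up to 3 called genes with the largest fold change per list and comparison were named. 1 gene that this rule names is not reported here. Members and lists were chosen with earlier results of these data known.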

Additional observations from a re-analysis of the deposited data

Results flagged for a closer look

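XPO7 itself differed between the shRNAs: it was 0.92 higher on the log2 scale with shXPO7_5 than with shXPO7_3 (adjusted p = 0.000387, edgeR's quasi-likelihood test), with all 3 libraries of each group on their side of the other. In the fit of these 2 groups alone the adjusted p was 0.114.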

How the results depend on the processing

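In OIS, IGF2, IGFBP3, IGFBP5, IGFBP6 and IGFBP7 were called in all 14 alternatives. The number of members called in OIS was 5 of 8 (7777 genes called in all), and it was 8 with the GC and length offset (9898 genes) and 2 when a log2 fold change of at least 1 was required. It was 5 with RLE scaling or DESeq2 and 6 with upper-quartile scaling, no filter, the 1 CPM filter, the replicate block or the 2 groups alone. With a library left out it was between 6 and 7 of 9, since IGFBP1 then passed the filter. IGFBP1 was called in each of these fits (adjusted p from 0.00775 to 0.0424), against 1 read in each vector library. It did not pass the filter without shXPO7_3/4OHT replicate T or A. Its entry thus rested on induced libraries where it was higher, which favours a call. With shXPO7_3 the number of members called was 0. It was 1 (IGF1R, adjusted p = 0.048) with the offset, where 382 genes were called in all instead of 19. With shXPO7_5 it was 0, and it was 1 with RLE scaling (127 genes called in all), 1 with a filter of 1 CPM in 6 libraries (135), 1 with a replicate block (149), 2 with no filter (217), 2 with the offset (503), 3 with DESeq2 (426), and between 0 and 6 with a library left out. The 6 came without shXPO7_5/4OHT replicate A, where 3634 genes were called in all instead of 90. In the direct comparison of the shRNAs it was 0 throughout.

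Near-zero fold changes turned sign. In OIS, IGF1R was -0.0745 with upper-quartile scaling, which moved the median of all genes to -0.105, -0.0035 with the 1 CPM filter, -0.0211 with the replicate block and between -0.0318 and 0.116 with a library left out, and IGFBP2 was -0.0296 with the block. With shXPO7_3, IGFBP4 ran from -0.0084 to 0.130 with a library left out. With shXPO7_5, IGFBP5 was 0.0116 with RLE, 0.0477 with upper-quartile scaling, 0.0116 with DESeq2 and between -0.0358 and 0.0467 with a library left out, and with the offset IGFBP4 was -0.0334 and IGFBP6 -0.0025. Between the shRNAs the offset gave -0.0027 for IGF2 and -0.0807 for IGFBP4. The cause of these shifts was not tested.

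Correlations of deviations from the group means ran from -0.234 to 0.589 between libraries with the same replicate letter. Between libraries with different letters they ran from -0.620 to 0.512. These ranges do not settle whether the letters pair the libraries, and the main fit used no pairing. Depth limits IGF1 and IGFBP1. With no filter IGFBP1 was called higher in OIS (log2 fold change 2.36, adjusted p = 0.0153).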
